A study of Homo sapiens with 6 samples.

Results

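The genes described here encode the aminoacyl-tRNA synthetases and 2 proteins that hold several of them together, and they were measured by RNA-seq in MCF10A, a non-tumorigenic line of human mammary epithelium, after depletion of the transcription factor PAX9. Members were chosen by symbol. They were 20 genes of cytosolic synthetases, 16 genes of mitochondrial synthetases, taken as the symbols that end in ARS2, and the scaffold genes AIMP1 and AIMP2, together 38 of the 26822 gene symbols in the table. In siNT, 3 samples received a non-targeting siRNA, and in siPAX9, 3 samples received siRNAs against PAX9, at 30 nM for 72 hours in both groups.

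A synthetase joins an amino acid to its tRNA, and the charged tRNA then carries the amino acid to the ribosome. Human cells run this reaction in the cytosol and again in the mitochondria, mostly with separate nuclear genes for each compartment, and the mitochondrial enzymes are made in the cytosol and imported. Several cytosolic synthetases sit in the multi-synthetase complex, which the AIMP proteins hold together. Many cytosolic synthetase genes are known targets of ATF4, the transcription factor of the amino acid and integrated stress response, which binds C/EBP-ATF elements in their promoters.

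The table gives 1 FPKM (a fragment count corrected for transcript length and sequencing depth) per locus and group, pooled by the authors over the samples of a group. Values are per length, so levels can be set side by side between genes. No value per sample and no count could be read from it, so no error between replicates, no confidence interval and no test is given here, and each difference below is between 2 pooled values. As the libraries come from whole cultures, fewer cells of a type and less RNA per cell cannot be told apart. A locus entered the counts when its mean FPKM over the 2 groups was at least 1, which 12595 named loci and all 38 members passed, and a difference was called when it was at least 2-fold, the fold used in the study's methods. PAX9 itself reached 2.80 FPKM in siNT against 0.325 in siPAX9. All 8 basal epithelial markers examined passed the filter. Of these, 4 were lower and 4 higher in siPAX9, beside 55.2% of all named loci lower. KRT6A and CDH1 were at least 2-fold higher, beside 6.75% of all named loci. TP63 was among the 4 that were lower, at 35.4 FPKM in siNT and 25.3 in siPAX9. KRT5 stood at 1558 FPKM in siNT against 1807 in siPAX9, whereas the leukocyte gene PTPRC was at 0.0166 and 0.0922. The stromal gene COL1A1 was at 0.454 in siNT and 4.13 in siPAX9, and the endothelial gene PECAM1 was at 2.58 and 0.495. ESR1, PGR, ALB and GFAP stayed under 1 in both groups. All 10 proliferation genes examined, among them MKI67 and TOP2A, were lower in siPAX9, beside 55.2% of all named loci, and their median log2 difference was -1.60. The part of proliferation in the synthetase differences was not tested.

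The promoter sequences that the results refer to are shown first, since 8 members held a match to the C/EBP-ATF element. RefSeq promoter windows on GRCh38.p14, from 250 bases before to 50 bases after the start of transcription, were available for 32 of the 38 members. DARS, LARS, VARS, YARS, AARS2 and VARS2 had no window. The motif TGATGNAA was searched on both strands, and on the opposite strand it reads TTNCATCA. It was found for 7 of 16 cytosolic genes and for 1 of 14 mitochondrial genes, and for neither scaffold gene. For each match, 30 bases are given on the strand of the gene, with the match in capitals.
GARS: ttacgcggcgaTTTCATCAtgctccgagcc
IARS: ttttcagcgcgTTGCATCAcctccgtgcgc
CARS: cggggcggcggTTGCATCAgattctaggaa
MARS: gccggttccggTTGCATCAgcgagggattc
AARS: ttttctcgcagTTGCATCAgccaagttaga
TARS: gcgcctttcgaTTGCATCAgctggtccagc
NARS: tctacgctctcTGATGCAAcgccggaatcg
YARS2: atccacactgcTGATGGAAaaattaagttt

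In 6 of the 7 cytosolic genes the match was the exact 8 bases TTGCATCA or their reverse complement, and GARS held TTTCATCA instead. The windows lay at chr7:30594834-30594863 for GARS, chr9:92293692-92293721 for IARS, chr11:3057407-3057436 for CARS and chr12:57488053-57488082 for MARS. Those of AARS, TARS and NARS were chr16:70289675-70289704, chr5:33440956-33440985 and chr18:57621804-57621833, and that of YARS2 was chr12:32756076-32756105. Of the matches, 6 were close to the start site, between -33 in GARS and 15 in NARS, while the first base of the match was at -187 in AARS and at -197 in YARS2. The share of genes with a match was 43.8% of the 16 cytosolic genes and 7.14% of the 14 mitochondrial genes, beside 2.73% of the 9496 genes that had a window and passed the FPKM filter. Over all 35114 windows of this length, 3.62% held a match.

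The 7 cytosolic genes with the element had a median log2 difference (siPAX9 over siNT) of -1.01, and the 9 without it had a median of -0.56. Both ranges overlapped, since NARS, with the element, was at -0.39 and WARS, without it, was at -0.86. Across all expressed genes with a window the same split was far smaller, with medians of -0.15 for the 259 genes that held the element and -0.08 for the rest. Split by the exact element TTGCATCA, the cytosolic medians were -0.87 with it and -0.57 without it, a smaller gap than with TGATGNAA. The E-box CACGTG, the binding sequence of MYC and related factors, was found in 1 of 16 cytosolic genes (IARS), 3 of 14 mitochondrial genes (CARS2, EARS2 and MARS2) and AIMP2, beside 12.7% of expressed genes. A match is a description of the sequence and does not show that a factor was bound there.

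**Figure D1:**
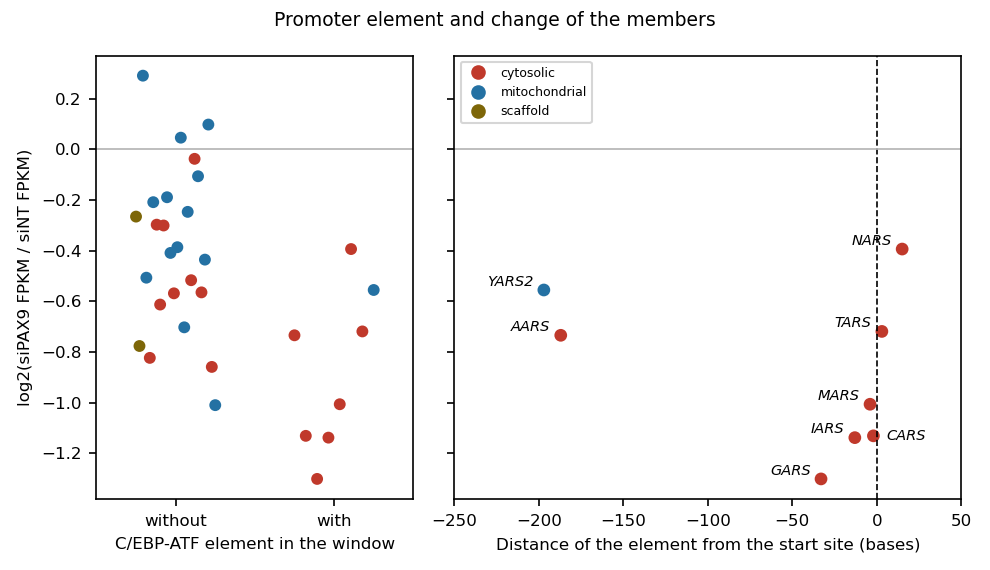
The y axis of both panels is the log2 ratio of siPAX9 FPKM over siNT FPKM, the left panel splits the 32 members with a promoter window by the presence of TGATGNAA, and the right panel sets the difference of the 8 members with a match against the distance of the match from the start site in bases. Points are genes (red cytosolic, blue mitochondrial, olive scaffold), and 6 of the 8 matches lie near the start site.

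All 20 cytosolic synthetase genes had a lower FPKM in siPAX9 than in siNT, beside 55.2% of all named loci, although RARS was higher once the groups were scaled to equal sums. TARSL2, a further threonyl-tRNA synthetase gene of the cytosol that was not among the 20, was higher in siPAX9, at 4.37 and 6.33 FPKM. The log2 differences of the 20 genes ran from -1.30 to -0.04 with a median of -0.67, while the 12595 named loci had a median of -0.07. A 2-fold decrease was reached by 5 of the 20 (GARS, YARS, IARS, CARS and MARS), beside 6.91% of all named loci, and a 1.5-fold decrease by 11 of the 20, beside 16.7%. With the groups scaled to equal sums, only GARS of the 20 was 2-fold lower. In the deposited scaling none of the 20 was 1.5-fold higher, beside 13.5% of loci. All 20 were among the 6516 loci with a mean FPKM of at least 10, of which 61% were lower, 5.43% were 2-fold lower and 16.9% were 1.5-fold lower, with 3.82% 2-fold higher and 8.61% 1.5-fold higher. The sum of their FPKM went from 1137 in siNT to 708 in siPAX9, a ratio of 0.623, beside 0.829 for the sum over all named loci.

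The glycine enzyme GARS (hg19 chr7:30634351-30673648) had the largest decrease among all 38 members. Its FPKM was 91.4 in siNT and 37.1 in siPAX9, a 2.46-fold lower value. GARS is also one of the genes whose product serves both compartments. YARS, the tyrosine enzyme, went from 55.9 to 24.6, and 396 of its exon bases overlap exons of S100PBP. IARS, which charges isoleucine, reached 80.8 FPKM in siNT against 36.7 in siPAX9. The cysteine enzyme CARS was the lowest of the 20 in siPAX9, at 12.1 from 26.6 in siNT. For MARS, the methionine enzyme that also charges the initiator tRNA, the pair was 46.0 and 22.9, a ratio of 2.01 that only just passed the 2-fold line. The MARS row also carries the symbol MIR6758, and 874 of the exon bases of MARS overlap exons of ARHGAP9 and DDIT3, whose reads cannot be told apart from those of MARS there, as the strand of counting is not given. The same limit holds for the other genes with shared exon bases, among them WARS (287 with WDR25), KARS (176 with TERF2IP), AARS (43 with DDX19B), AIMP1 (476 with TBCK), AIMP2 (532 with EIF2AK1), EARS2 (214 with GGA2 and UBFD1) and HARS2 (260 with HARS and ZMAT2).

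A further 6 cytosolic genes lay between 1.5-fold and 2-fold lower. WARS, the tryptophan enzyme, reached 44.2 FPKM in siNT against 24.4 in siPAX9. EPRS, a single protein that charges both glutamate and proline, was among the highest of the family at 110.4 in siNT and was at 62.4 in siPAX9. The aspartate enzyme DARS was at 36.8 and 21.97. AARS, for alanine, shares its row with EXOSC6 and went from 44.03 to 26.5. TARS, for threonine, stood at 76.6 in siNT and at 46.5 in siPAX9. FARSB, the beta chain of the phenylalanine enzyme, was at 21.2 and 13.9, whereas FARSA, its alpha chain, was at 25.8 and 21.0. The 2 chains of this enzyme therefore differed in log2 terms by -0.61 and -0.30.

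The remaining cytosolic genes were less than 1.5-fold lower. KARS, the lysine enzyme of both compartments, lay just short of that line, with 89.1 FPKM in siNT against 60.1 in siPAX9. SARS, for serine, was at 107 and 72.2. QARS, for glutamine, was at 38.3 and 26.8. These 3 genes had ratios of 1.43 to 1.48. The asparagine enzyme NARS was at 74.7 in siNT and 56.9 in siPAX9. LARS, the leucine enzyme, which also takes part in amino acid sensing, was at 49.3 and 38.2. VARS, for valine, went from 30.8 to 24.5, and its 6 other rows, on alternate haplotypes of chromosome 6, were listed at 0. HARS, for histidine, was at 38.1 and 30.9, and 1198 of its exon bases overlap exons of neighbouring genes, HARS2 among them. RARS, the arginine enzyme (hg19 chr5:167913463-167946309), had nearly equal values of 49.7 and 48.4. RARS was thus the cytosolic gene nearest to no difference, and after the log2 differences were centred on the median of all loci it lay on the other side, at 0.03.

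**Figure D2:**
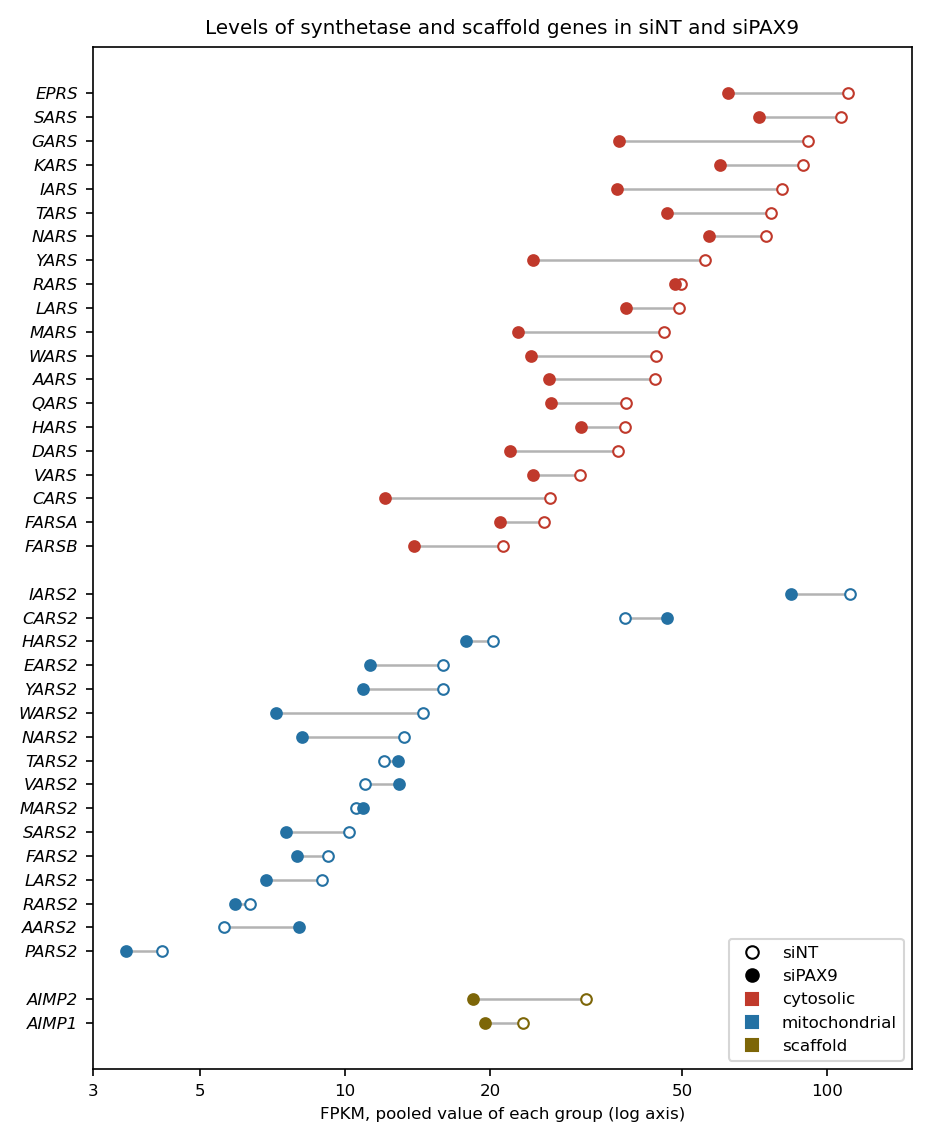
FPKM (x axis, log scale) of each of the 38 members in siNT (open circle) and siPAX9 (filled circle), 1 pooled value per group and no error bar, sorted by the siNT level within cytosolic, mitochondrial and scaffold genes. In the deposited scaling, in which RARS and AIMP1 lie lower and which equal sums would turn for these 2, every cytosolic and scaffold gene has its filled circle to the left of the open one, and 5 of the 16 mitochondrial genes have it to the right.

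Membership of the multi-synthetase complex did not separate the cytosolic genes. The 8 synthetases of the complex had a median log2 difference of -0.66, and the 12 outside it had -0.67. Within the complex, IARS and MARS passed the 2-fold line and RARS was at -0.04, so its members spanned nearly the whole range. Of the scaffold genes, AIMP2 was at 31.7 FPKM in siNT against 18.5 in siPAX9, and AIMP1, which is also the precursor of a secreted cytokine, was at 23.4 and 19.5. The third scaffold gene, EEF1E1, was not a member, and its row, which it shares with BLOC1S5, TXNDC5 and their read-through transcripts, was at 132 and 77.7. Synthetases fall into class I and class II by the fold of the catalytic domain. The 9 cytosolic class I genes had a median of -0.86 and the 10 class II genes one of -0.59, with EPRS left out because it holds a domain of each class. Both classes reached far down, with YARS at -1.18 and GARS at -1.30.

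The mitochondrial synthetase genes held both lower and higher values in siPAX9. Of the 16 genes, 11 were lower and 5 were higher in siPAX9, beside 55.2% of all named loci lower, with a median log2 difference of -0.23 and a range from -1.01 to 0.52. WARS2 alone was 2-fold lower, beside 6.91% of loci, 2 genes were 1.5-fold lower, beside 16.7%, and none was 1.5-fold higher, beside 13.5%. The WARS2 call was lost with 1 added to each FPKM, after centring on the median of all loci, and with equal sums. The sum of their FPKM went from 308 to 263, a ratio of 0.853, which lay near the 0.829 of all named loci. When the FPKM of each group was divided by its sum over all named loci, a scaling chosen after the values were seen, every log2 difference moved up by 0.27. The mitochondrial median then changed sign to 0.043, with 7 of 16 genes lower, while 19 of the 20 cytosolic genes stayed lower and RARS did not. AIMP1 came to lie at 0.0055. A scaling of this kind moves all genes alike and so cannot change the difference between the compartment medians.

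WARS2, the mitochondrial tryptophan enzyme, reached 14.5 FPKM in siNT against 7.21 in siPAX9, a 2.01-fold lower value. NARS2, for asparagine, was at 13.3 and 8.16. YARS2, for tyrosine and the only mitochondrial gene with a C/EBP-ATF match, was at 16.0 and 10.9. These were the 3 mitochondrial genes with the largest decreases. EARS2, which charges glutamate and also starts the indirect route to mitochondrial glutaminyl-tRNA, went from 16.0 to 11.3. SARS2, for serine, was at 10.2 in siNT and 7.56 in siPAX9, and 1492 of its exon bases overlap another annotated gene. IARS2, for isoleucine, was the most abundant member in siNT and stood at 112 and 84.1. It lies in the same assembled locus as EPRS (hg19 chr1:220046619-220321383), and each has a row of its own.

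Smaller differences were found for the next genes. LARS2, for leucine, was at 8.98 in siNT and 6.87 in siPAX9. PARS2, for proline, was the least abundant member, at 4.18 and 3.53. FARS2, a single chain that charges phenylalanine, was at 9.21 and 7.97. All 3 were under 1.5-fold apart. HARS2, for histidine, was at 20.3 and 17.8, and RARS2, for arginine, was at 6.37 and 5.92.

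Higher values in siPAX9 were seen for 5 mitochondrial genes. AARS2, for alanine (hg19 chr6:44266452-44281063), had the largest increase, from an FPKM of 5.62 to 8.05, a log2 difference of 0.52. CARS2, for cysteine, was at 38.02 in siNT and 46.5 in siPAX9. VARS2, for valine, which shares its row with GTF2H4, was at 11.0 and 12.9. TARS2, for threonine, was at 12.1 and 12.9, and MARS2, for methionine, at 10.6 and 10.9. None of the 5 reached 1.5-fold, and without a value per sample the smallest of these differences cannot be told from no difference.

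**Figure D3:**
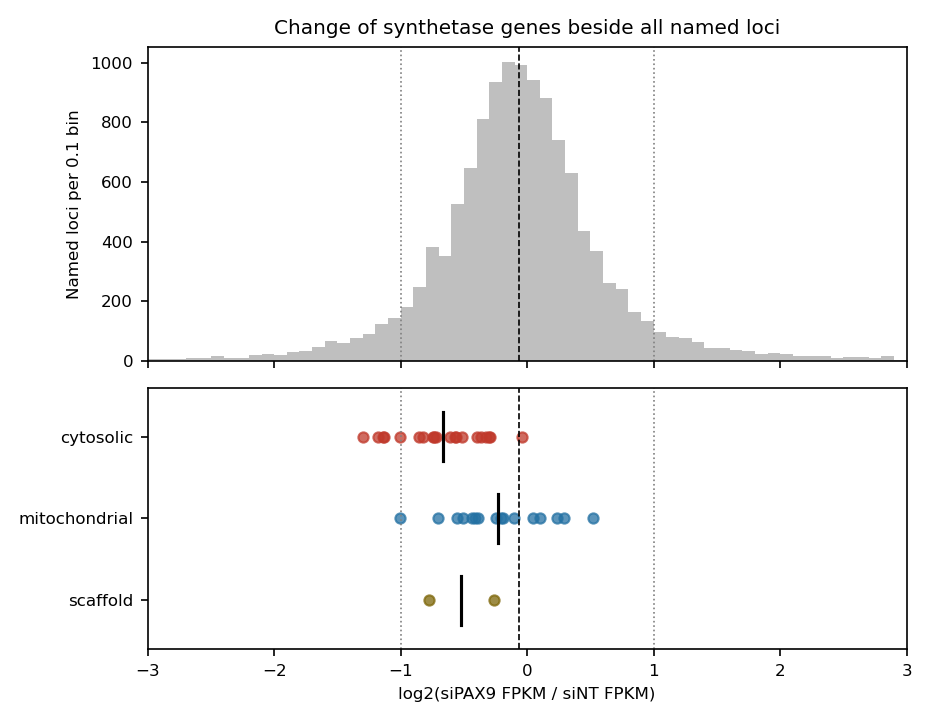
The upper panel counts the named loci with mean FPKM of at least 1 per bin of the log2 ratio of siPAX9 FPKM over siNT FPKM, and the lower panel places each member on the same x axis by compartment, with the median as a black bar. The dashed line is the median of all loci (-0.07), the dotted lines mark 2-fold, and the cytosolic median (-0.67) lies to the left of the mitochondrial one (-0.23).

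Setting the cytosolic against the mitochondrial gene of the same amino acid gave 17 pairs, with FARSA and FARSB each set against FARS2 and EPRS against both EARS2 and PARS2. These pairs share genes and are not independent. In siNT the cytosolic gene had the higher FPKM in 15 of the 17 pairs, with a median ratio of 4.35, and in siPAX9 in the same number of pairs, with a median ratio of 3.29. Cysteine and isoleucine were the exceptions in both groups. The cytosolic to mitochondrial ratio was 0.699 in siNT and 0.261 in siPAX9 for cysteine, and 0.724 and 0.437 for isoleucine.

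The cytosolic gene had the lower log2 difference in 13 of the 17 pairs, and the median difference between the 2 genes of a pair was -0.40. At loci that carry 1 symbol only, which leaves out the rows of AARS, MARS and VARS2, the cytosolic gene was lower in 10 of 14 pairs and the median difference was -0.22. Over all 17 pairs, the cytosolic gene was lower by at least 0.5 in 8 pairs, and in 0 pairs was the mitochondrial gene lower by that much. CARS and CARS2 were furthest apart, by -1.42, since one was lower and the other higher in siPAX9. CARS2 shares 334 exon bases with ING1, and AARS2 shares 235 with TMEM151B and another annotated gene. Alanine came next at -1.25, followed by methionine at -1.05 and threonine at -0.82. In each of these amino acids the mitochondrial gene was higher in siPAX9. Isoleucine (-0.73), tyrosine (-0.63), proline (-0.58) and valine (-0.56) made up the rest of the 8.

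Asparagine, tryptophan, arginine and leucine went the other way, with the cytosolic gene less reduced than the mitochondrial one. The difference was 0.31 for NARS and NARS2 and 0.15 for WARS and WARS2. It was 0.07 for arginine and 0.02 for leucine, values too close to 0 to give a direction without replicates, and with 1 added to each FPKM the leucine pair turned to -0.02. Tryptophan was the amino acid for which both genes were at least 1.5-fold lower. Within a compartment, Spearman's rho between mean FPKM and log2 difference was -0.09 over the 20 cytosolic genes and -0.07 over the 16 mitochondrial genes, as a description across genes of the same pooled libraries. The compartments themselves differed in level, with a median of 47.6 FPKM in siNT for the cytosolic genes against 11.5 for the mitochondrial genes, and the part of this in the difference between them was not tested.

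**Figure D4:**
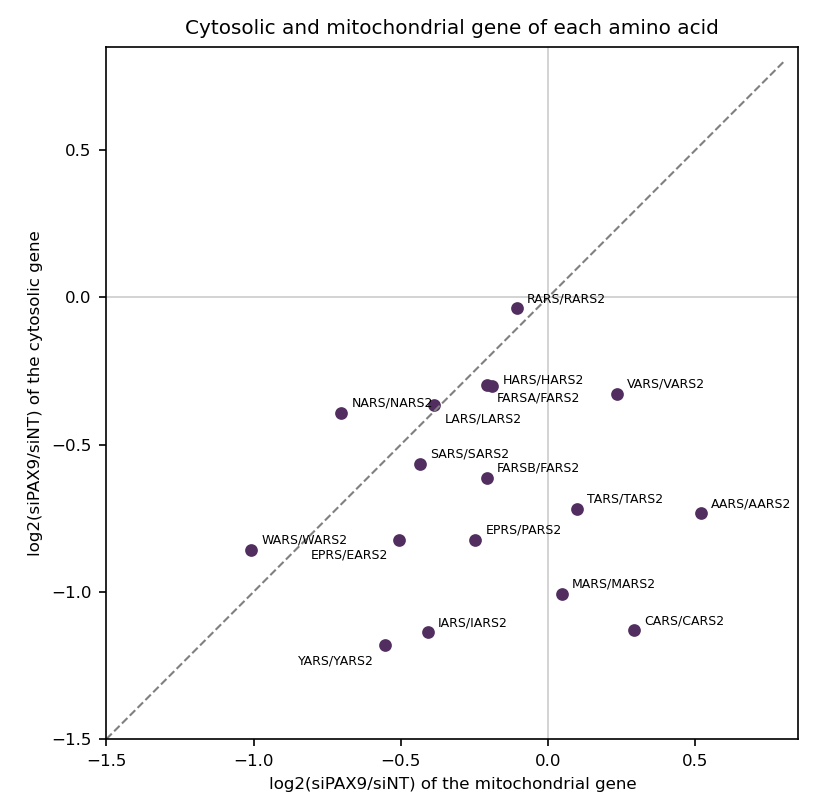
Each point is 1 of the 17 pairs, with the log2 ratio of siPAX9 FPKM over siNT FPKM of the mitochondrial gene on the x axis and that of the cytosolic gene on the y axis. Points under the dashed line of equality are pairs whose cytosolic gene had the lower value, 13 in all, and CARS/CARS2 and AARS/AARS2 lie furthest from the line.

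Other genes around tRNA charging were taken from a list of 17, of which 16 were in the table under the listed symbol (PET112 was not). Of the 16, 11 were lower and 5 higher in siPAX9, none by 2-fold and 6 lower by 1.5-fold, with a median log2 difference of -0.15. Over all named loci 55.2% were lower, 6.91% were 2-fold lower and 16.7% were 1.5-fold lower. Among the genes that were 1.5-fold lower were DTD1, which removes D-amino acids from tRNA, the tRNA export receptor XPOT, the elongation factor EEF1A1, the row that holds EEF1E1, and that of the alanyl editing protein AARSD1, which also carries PTGES3L. XPOT was at 59.3 FPKM in siNT against 31.1 in siPAX9, and EEF1A1, which brings charged tRNA to the cytosolic ribosome, was at 1815 and 1042. Its mitochondrial counterpart TUFM was at 114 and 124. QRSL1 and GATC, subunits of the mitochondrial glutamyl-tRNA amidotransferase, were at 6.64 and 7.55 and at 13.3 and 12.3.

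Of the 30 genes listed for the ATF4 response, 28 passed the FPKM filter, and 13 of these were at least 2-fold lower in siPAX9 and 0 at least 2-fold higher, beside 6.91% and 6.75% of all named loci. The 13 include SLC1A4, at 1.66 FPKM in siNT and 0.499 in siPAX9. It passed the filter only through siNT, so it had to be lower. The list was written with several of its decreased genes already known, so its count is not independent evidence of a direction. ATF4 itself was at 404 FPKM in siNT against 157 in siPAX9. Asparagine synthetase, ASNS, which makes the amino acid that NARS uses, was at 44.4 and 7.98. Of the 3 enzymes of serine synthesis, PHGDH was at 45.5 and 1.202 and PSAT1 at 98.4 and 22.6, while PSPH, which carries out the last step, was under 1.5-fold lower at 15.9 and 11.2. Mitochondrial one-carbon enzymes were 2-fold lower too, with SHMT2 at 151 and 41.0, MTHFD2 at 112 and 36.5 and ALDH1L2 at 22.9 and 3.33. PCK2, the mitochondrial form of phosphoenolpyruvate carboxykinase, was at 9.58 and 2.21, and the secreted glycoprotein gene STC2 was at 34.1 and 9.19. CHAC1, which degrades glutathione, was at 8.60 and 1.14, and TRIB3, a feedback inhibitor of ATF4, at 65.8 and 14.1. Not all of the response was lower. The stress gene DDIT3 was at 8.53 and 9.08, SESN2 at 17.0 and 17.3, and ATF3, a stress-induced factor of the same family, at 1.86 and 3.15.

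Within the ATF4 list, the 8 genes with a match to TGATGNAA had a median log2 difference of -0.52 and the other 15 with a window one of -0.62. The exact element TTGCATCA was found in 4 of the 23, with a median of -1.32 against -0.46 for those without it, so the looser and the exact element gave opposite orders. With so few genes and 1 pooled value per group, none of these medians carries an error.

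**Figure D5:**
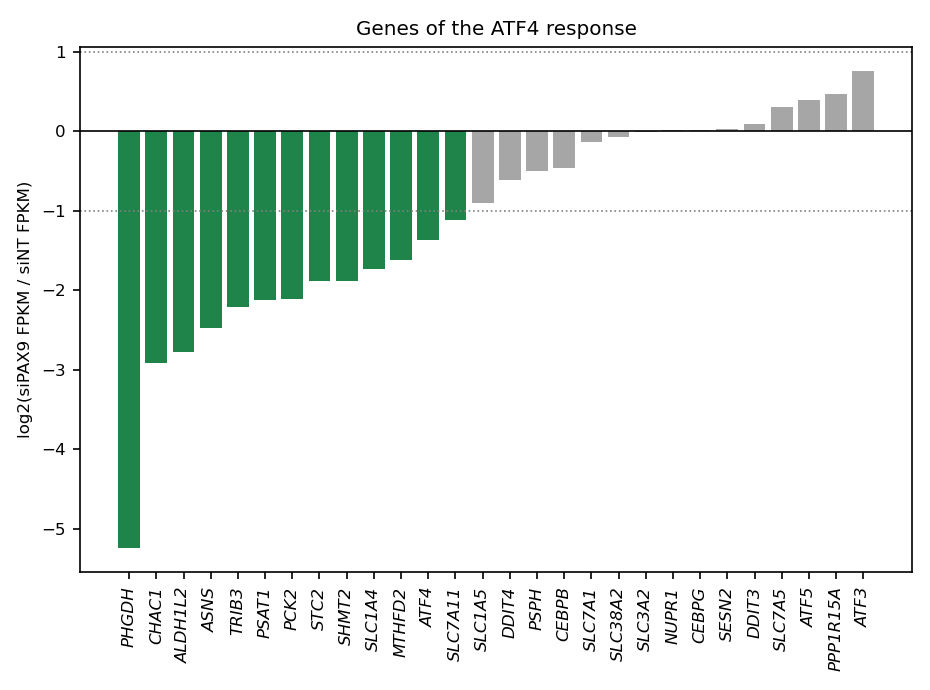
Bars give the log2 ratio of siPAX9 FPKM over siNT FPKM (y axis) for the 28 genes of the ATF4 list that passed the FPKM filter, sorted by value, with green bars for differences of at least 2-fold and dotted lines at 2-fold. The 13 green bars all point down, from PHGDH to SLC7A11, and that of SLC1A4 had to, since it passed the filter only through siNT.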

How the data were processed

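RNA-seq of poly(A)+ RNA was analysed from the 3 siNT and 3 siPAX9 samples. The authors sequenced single-end reads, aligned them to hg19 with Bowtie2 and quantified them with Cufflinks in Partek, and deposited 1 FPKM per locus and group, so the samples of a group were already pooled. The scaling between libraries is not given in the sources used here. Columns of the authors' own comparison (status, fold change, test statistic, p-value, q-value, significance) were not used. Of 41656 loci, 27678 carried a symbol.

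A member's row was the one holding its exact symbol, and the highest mean FPKM was kept where there were several. The log2 difference was log2 of siPAX9 FPKM over siNT FPKM, with nothing added. Loci needed a mean FPKM of at least 1. Calls used 2-fold, with 1.5-fold as an alternative. All 38 members are named, and of other lists the genes 2-fold apart, at most the 8 largest per list, were to be named. Those of the ATF4 and interferon lists are given; other genes of these lists, the partners, proliferation genes and cell markers were named after their values were seen. A few listed genes are not reported here. Members and lists were chosen with earlier results of these data known. Exon overlaps came from GENCODE on GRCh37, which has the coordinates of hg19 on the main chromosomes, and the strand of the libraries is not given. Promoter windows came from RefSeq on GRCh38.p14. The code of the calls and of the motif search was run on simulated data with planted differences and motifs. No noise was added, so this checked the code and not the calls made from pooled values. Tables were made with Python 3.11.15, pandas 2.3.3 and numpy 2.4.6, and plots with matplotlib 3.10.9. The table gives no depth per sample, and no test could be run on 1 pooled value per group.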

Additional observations from a re-analysis of the deposited data

How the results depend on the processing

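No paired analysis was possible because the table holds 1 pooled value per group, and for the same reason no sample could be left out. The comparison of compartments kept its direction under every alternative that could change it: the cytosolic minus the mitochondrial median, -0.44 as reported, was -0.45 with 1 added to each FPKM, -0.34 both at loci with 1 symbol and without members that share exons, and -0.37 at a mean FPKM of at least 10. The cytosolic median was -0.64, -0.59 and -0.59 in the first 3 of these and -0.39 with equal summed FPKM of the groups, a scaling chosen after seeing the data, as was leaving out members that share exons. The mitochondrial median was -0.19, -0.25, -0.25 and -0.30 in the first 4, and 0.043 with equal sums. The median of all loci was -0.059 with 1 added, -0.13 at an FPKM of at least 10, 0.032 with no filter and 0.20 with equal sums. At 1.5-fold, 11 cytosolic, 2 mitochondrial and 1 scaffold gene were called lower. With equal sums 1 cytosolic gene (GARS) was 2-fold lower, and 4 with 1 added or after centring. WARS2 lost its call in these 3 settings, which left 0 mitochondrial genes. The median difference within pairs was -0.39 with 1 added and -0.22 at loci with 1 symbol, where 10 of 14 pairs had the lower cytosolic value. Without members that share exons it was 6 of 9. TTGCATCA was found in 37.5% of cytosolic, 0% of mitochondrial and 0.779% of expressed genes with a window, and TGATGNAA in 4.46% of all symbols with a window. With 1 pooled value per group, small differences carry no error.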

Other observations

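WARS, the cytosolic tryptophan enzyme, is known to be induced by interferon, and its FPKM was lower in siPAX9 while several interferon genes were higher. Of 10 interferon-responsive genes, 2 were lower in siPAX9, beside 55.2% of all named loci. The other 8 were higher, 6 of them by at least 2-fold, beside 6.75% of all named loci at least 2-fold higher. Of these 6, IFIT1, at 0.571 and 12.2, and MX1, at 0.170 and 2.73, were under 1 FPKM in siNT and passed the filter only through siPAX9, so that they had to differ and their folds rest on low values. The others were ISG15, with 7.13 FPKM in siNT against 65.4 in siPAX9, IFIT3, at 4.08 and 17.7, the row of IRF9 and RNF31, at 14.0 and 29.4, and GBP1, at 4.89 and 9.80. WARS was at 44.2 and 24.4. The genes IRF1 and GBP2, at 10.9 and 10.4 and at 19.5 and 19.5, were nearly equal between groups. A relation between WARS and this list was not tested. This list was written with interferon genes already known to differ in these data.

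Of the 17 pairs, the mRNA ratio of the cytosolic to the mitochondrial gene differed most between groups for cysteine. CARS2 was already the more abundant gene in siNT, at an FPKM of 38.02 beside 26.6 for CARS, and in siPAX9 it stood at 46.5 beside 12.1. Among the 38 members, CARS2 ranked 17 by level in siNT and 8 in siPAX9, while RARS, which hardly differed, ranked 10 in siNT and 6 in siPAX9.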
